A study of Mus musculus with 12 samples.

Results

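The 45 genes described here encode proteins that copy DNA and carry a cell through division. They were chosen by name and function, by a rule that uses none of their measured values although earlier results of these data were known, as a list meant to gauge the share of dividing progenitors, and each was found by its NCBI Gene ID among the 45777 genes of the tables. The list holds 12 genes of replication origin licensing (*Mcm2*, *Mcm3*, *Mcm4*, *Mcm5*, *Mcm6*, *Mcm7*, *Orc1*, *Cdc6*, *Cdt1*, *Gmnn*, *Gins1* and *Gins2*), 4 of DNA synthesis (*Pcna*, *Rrm1*, *Rrm2* and *Tyms*) and 6 of the passage from G1 to S phase (*Ccnd1*, *Ccne1*, *Ccne2*, *Cdk2*, *E2f1* and *Chek1*). It also holds 9 cyclins and kinases of G2 and mitosis (*Ccna2*, *Ccnb1*, *Ccnb2*, *Cdk1*, *Plk1*, *Aurka*, *Aurkb*, *Nek2* and *Melk*), 4 genes of the mitotic checkpoint and anaphase promotion (*Bub1*, *Bub1b*, *Cdc20* and *Ube2c*) and 10 of mitotic chromosomes and the spindle (*Mki67*, *Top2a*, *Birc5*, *Kif11*, *Kif20a*, *Cenpa*, *Cenpe*, *Cenpf*, *Nusap1* and *Tpx2*). *Gins1* and *Gins2* encode subunits of the active helicase and were counted with the licensing genes.

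Ventral spinal cord of mouse embryos at E12.5 was profiled by bulk RNA-seq of total RNA, after the cords had been trimmed around the motor neuron reporter *Hb9::GFP*. The 12 libraries form 4 groups of 3. Brachial and lumbar cord were each taken from *Isl2* heterozygotes (*Isl2* +/-, Het) and from embryos without *Isl2* (KO). All 4 groups were trimmed around the same reporter, the controls lack 1 *Isl2* allele, and wild-type cord was not analysed here. *Isl2* encodes a LIM-homeodomain transcription factor of postmitotic motor neurons.

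In the embryonic cord, progenitors divide next to the central canal, leave the cell cycle as they become neurons and move outward into the mantle, where motor neurons settle ventrally. Licensing factors load the Mcm helicase on origins before S phase, the synthesis genes supply nucleotides and the sliding clamp while DNA is copied, and the mitotic genes are transcribed late, in G2, so their transcripts mark cells about to divide. Postmitotic neurons keep most of these genes low, so in a tissue holding both kinds of cell the transcripts come largely from the dividing ones.

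Aligned sequence ranged from 4.48 to 6.64 Gb over the libraries and 22983 to 24191 genes had values above 0. *Isl2* itself was still detected in KO. It averaged 8.92 ± 0.716 rescaled TPM (SD, n = 3) in brachial Het and 5.93 ± 1.41 in brachial KO, and 9.39 ± 0.941 in lumbar Het and 7.37 ± 0.854 in lumbar KO, with log2 differences of -0.61 (limma, adjusted p = 0.359) and -0.35 (limma, adjusted p = 0.999). Whether the reads lie in the deleted part cannot be told from gene totals. The male transcript *Ddx3y* and *Xist* put 2 males and 1 female in each brachial group and in lumbar KO but 1 male and 2 females in lumbar Het, and only 3 of 6 same-numbered brachial and lumbar libraries matched in sex. The study used 3 animals of each genotype, so at least for Het the brachial and lumbar libraries cannot all come from the same 3 embryos, and libraries were treated as separate samples. Where they share embryos, p-values between levels do not take that into account, and all p-values measure only the spread between these samples.

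All 45 genes were higher in lumbar than in brachial cord. Each passed the test (limma on log2 values, adjusted p from 0.000888 to 0.0211), with log2 differences from 0.42 for *Ccne1* to 1.05 for *Cdc6* and a median of 0.81, a 1.75-fold difference. Over all 16706 genes tested the median was 0.012 8.72% were called higher and 9.48% lower, and 52.2% had a difference above 0. In 30 of the 45 the lowest lumbar library stood above the highest brachial one, against 3.65% of all genes. Summed over the list, the genes reached 676 to 1023 rescaled TPM in the brachial libraries and 1103 to 1823 in the lumbar ones. Rescaled TPM is the deposited level of a transcript per length, divided by a size factor of its library, so it can be compared between libraries and between genes. Log2 differences are on the scale of log2(rescaled TPM + 0.1), which understates changes of low genes. In bulk tissue, fewer cells of a type and less RNA per cell cannot be told apart.

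**Figure D1:**
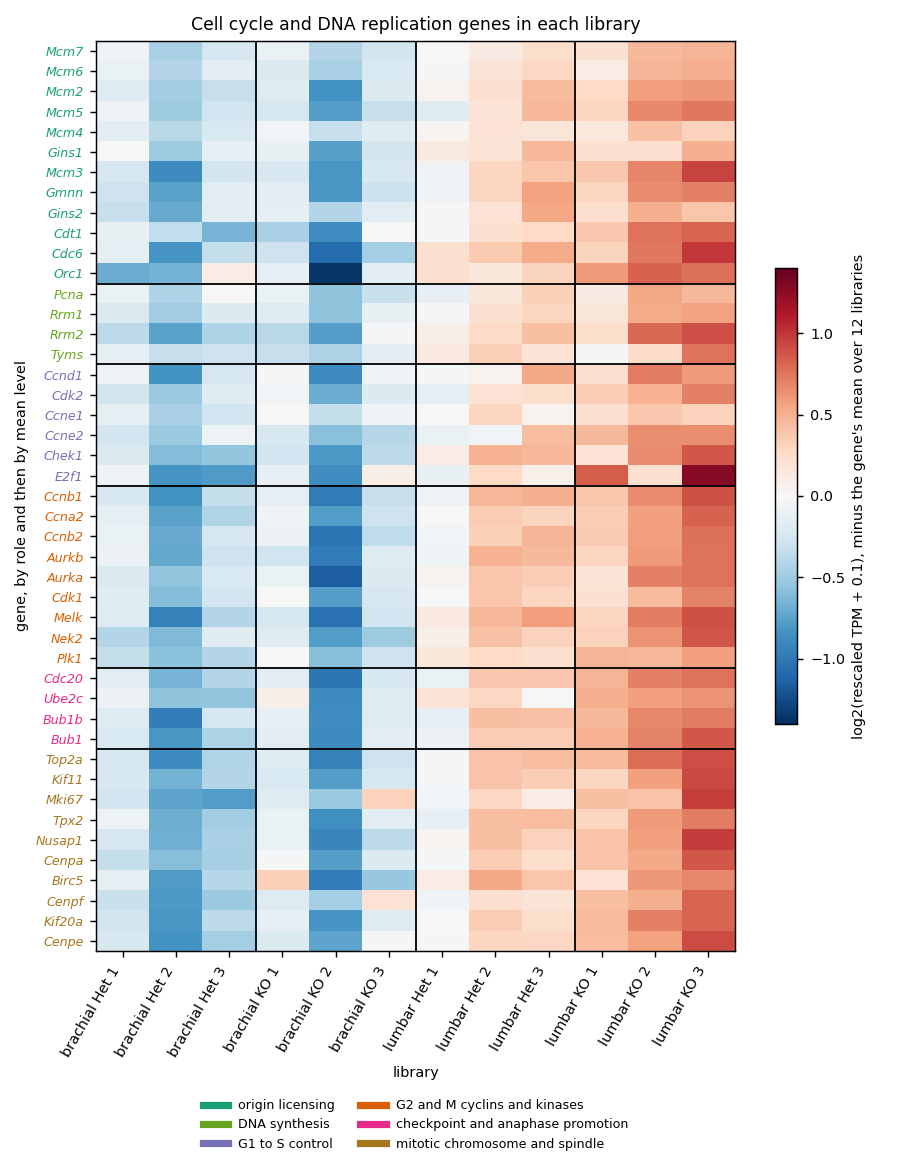
Level of each of the 45 genes (rows, by role and then by mean level) in each of the 12 libraries (columns), as log2(rescaled TPM + 0.1) minus the gene's mean over the libraries. The 6 lumbar columns on the right are redder than the brachial ones for every role, and the second column of each brachial group is the lowest of its group for 42 genes in Het and 45 in KO.

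Since the genes moved together, the letters of their promoters were compared. RefSeq (GRCm38.p6) holds windows from 250 bases before to 50 after the start for 35 of the 45. The windows of *Orc1*, *Cdc6*, *E2f1* and *Aurka*, and a window of *Mcm7*, lay wholly inside the annotated gene. Both strands were searched. The E2F words, known from genes of S phase, were GCGGGAA or GCGCGAA or GCGCCAA. The word of the cell cycle genes homology region (CHR), known from genes of G2 and mitosis, was TTTGAA. The box CCAAT, common to both classes, was the last. GCGCCAA and this box share letters where they meet as GCGCCAAT, and a pair of E2F words overlap in TTGGCGCGAA. E2F words lay in 7 of 8 licensing promoters, in 3 of the other 8 promoters of S phase and G1 genes, and in 3 of 19 mitotic ones, against 9.20% of all 27025 genes with windows. The CHR word lay in 12 of 19 mitotic promoters and in 1 of the other 16, against 20.2% of all genes. CCAAT was found in 26 of the 35, against 41.1%. A match describes letters only and is no sign of binding.

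The 120 bases before the start of the most abundant gene of each role with 1 window are shown to let these words be read beside the levels, on the strand of the gene and 5′ to 3′, with the words in capitals. The start is that of the RefSeq promoter table, which for *Top2a* lies 10 bases inside the annotated gene. All 6 genes lie on the minus strand, and the stretches are chr1:128359706-128359825 for *Mcm6*, chr2:132253181-132253300 for *Pcna*, chr10:128705052-128705171 for *Cdk2*, chr13:100786487-100786606 for *Ccnb1*, chr4:118437344-118437463 for *Cdc20* and chr11:99024190-99024309 for *Top2a*.
Mcm6: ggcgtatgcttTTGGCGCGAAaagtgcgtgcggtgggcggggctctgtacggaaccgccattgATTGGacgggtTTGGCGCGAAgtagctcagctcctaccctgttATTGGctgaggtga
Pcna: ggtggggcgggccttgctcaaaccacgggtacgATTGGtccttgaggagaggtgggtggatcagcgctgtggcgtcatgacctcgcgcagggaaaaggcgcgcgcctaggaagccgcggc
Cdk2: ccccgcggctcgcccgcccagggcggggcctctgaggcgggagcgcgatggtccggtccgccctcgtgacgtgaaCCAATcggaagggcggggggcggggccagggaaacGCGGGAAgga
Ccnb1: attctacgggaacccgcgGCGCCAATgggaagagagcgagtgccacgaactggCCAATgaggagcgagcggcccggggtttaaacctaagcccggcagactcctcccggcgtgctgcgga
Cdc20: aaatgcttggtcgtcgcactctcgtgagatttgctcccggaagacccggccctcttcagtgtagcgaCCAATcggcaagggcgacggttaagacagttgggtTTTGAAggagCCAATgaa
Top2a: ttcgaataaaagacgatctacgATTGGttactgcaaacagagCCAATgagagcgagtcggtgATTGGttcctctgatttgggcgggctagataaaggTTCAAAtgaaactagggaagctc
The *Mcm6* stretch carries 4 E2F words in 2 overlapping pairs and 2 CCAAT boxes, and that of *Pcna* a single CCAAT box. That of *Cdk2* carries 1 E2F word and 1 CCAAT box, and that of *Ccnb1* 1 E2F word and 2 CCAAT boxes. The *Cdc20* and *Top2a* stretches each carry 1 CHR word, with 2 and 3 CCAAT boxes. The genes themselves span chr1:128331575-128359705 (*Mcm6*), chr2:132249286-132253180 (*Pcna*), chr10:128697938-128705051 (*Cdk2*), chr13:100778739-100786486 (*Ccnb1*), chr4:118432901-118437343 (*Cdc20*) and chr11:98992947-99024199 (*Top2a*).

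The origin licensing genes had a median log2 difference of 0.73, and in 10 of 12 the levels did not overlap. *Mcm7* and *Mcm6*, subunits of the replicative helicase, were the most abundant. *Mcm7* stood at 67.1, 51.3 and 59.4 rescaled TPM in the brachial Het libraries, 65.9, 52.7 and 58.8 in brachial KO, 70.5, 75.7 and 83.1 in lumbar Het and 81.4, 96.4 and 97.4 in lumbar KO, a log2 difference between levels of 0.50 ± 0.082 (SE). *Mcm6* stood at 53.6, 43.1 and 51.7 rescaled TPM in the brachial Het libraries, 49.9, 41.9 and 49.3 in brachial KO, 56.3, 64.9 and 70.2 in lumbar Het and 61.6, 79.8 and 81.3 in lumbar KO, a difference of 0.51 ± 0.090 (SE). Every lumbar library lay above every brachial library for both, and the adjusted p-values were 0.00239 and 0.00360 (limma). *Mcm5* stood at 24.7, 18.4 and 21.3 rescaled TPM in the brachial Het libraries, 21.8, 15.2 and 20.7 in brachial KO, 22.9, 29.6 and 35.8 in lumbar Het and 32.0, 41.3 and 43.4 in lumbar KO, where lumbar Het replicate 1 fell among the brachial values, and differed by 0.73. *Cdt1*, which brings the helicase to origins, stood at 5.20, 4.40 and 3.53 rescaled TPM in the brachial Het libraries, 4.07, 3.02 and 5.57 in brachial KO, 5.57, 6.59 and 6.81 in lumbar Het and 7.31, 9.61 and 9.92 in lumbar KO, and differed by 0.82. There too Het replicate 1 was the only lumbar library that did not exceed the highest brachial one. *Mcm4* had the smallest difference of the role, 0.43. *Cdc6*, which loads the helicase with Cdt1, had the largest, 1.05 ± 0.17 (SE), although its level averaged only 3.40 rescaled TPM over the 12 libraries. *Gmnn*, whose product geminin blocks Cdt1 after S phase begins, rose with the licensing factors it restrains, by 0.82. *Orc1*, a subunit of the complex that marks origins and the lowest gene of the list with a mean of 1.67 rescaled TPM, differed by 0.96.

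Genes of DNA synthesis differed least, with a median of 0.57. *Pcna*, the sliding clamp of the polymerases and the most abundant gene of the whole list, stood at 117, 92.5 and 124 rescaled TPM in the brachial Het libraries, 117, 84.3 and 101 in brachial KO, 115, 139.9 and 158 in lumbar Het and 136, 182 and 172 in lumbar KO. Lumbar Het replicate 1 lay below 3 brachial libraries, and the log2 difference was 0.50 ± 0.11 (SE) with an adjusted p of 0.0112 (limma). The pseudogene *Pcna-ps2* was listed at 13.9 to 51.5 rescaled TPM, so reads of *Pcna* may have been split with it. *Rrm1*, the large subunit of ribonucleotide reductase, stood at 44.4, 36.4 and 44.6 rescaled TPM in the brachial Het libraries, 44.99, 34.4 and 47.3 in brachial KO, 49.9, 59.1 and 62.9 in lumbar Het and 57.2, 73.2 and 75.3 in lumbar KO, without overlap of levels, a difference of 0.58 ± 0.10 (SE). *Rrm2*, the small subunit that is made in S phase, differed more, by 0.91 ± 0.14 (SE), and *Tyms*, the thymidylate synthase, by 0.55 ± 0.12 (SE).

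Among the genes of the passage from G1 to S, with a median of 0.69, only *Ccne1* and *Chek1* separated the levels fully. *Ccnd1*, the D-type cyclin that answers growth signals, stood at 53.1, 31.0 and 47.2 rescaled TPM in the brachial Het libraries, 55.02, 30.2 and 53.5 in brachial KO, 54.4, 57.4 and 80.1 in lumbar Het and 65.2, 92.3 and 84.1 in lumbar KO and differed by 0.70 ± 0.18 (SE), with an adjusted p of 0.0211 (limma). Both brachial libraries numbered 2 were near 30 and the rest of the brachial ones near 50, so its spread was wide. *Cdk2*, the partner kinase of the E-type cyclins, stood at 8.82, 7.35 and 9.38 rescaled TPM in the brachial Het libraries, 10.3, 6.50 and 9.26 in brachial KO, 9.67, 12.1 and 12.49 in lumbar Het and 13.4, 14.8 and 17.2 in lumbar KO and differed by 0.62 ± 0.12 (SE). *Ccne1* stood at 8.04, 6.40 and 7.27 rescaled TPM in the brachial Het libraries, 8.76, 6.98 and 8.46 in brachial KO, 8.81, 10.9 and 9.11 in lumbar Het and 10.3, 11.5 and 11.1 in lumbar KO, the smallest difference of the 45 at 0.42 ± 0.088 (SE). The levels of *Ccne1* came close but did not overlap. Its paralog *Ccne2* stood at 5.93, 4.96 and 6.81 rescaled TPM in the brachial Het libraries, 6.11, 4.73 and 5.39 in brachial KO, 6.69, 6.96 and 9.69 in lumbar Het and 9.80, 11.3 and 11.3 in lumbar KO and differed by 0.69 ± 0.12 (SE). In *Ccnd1*, *Cdk2* and *Ccne2* lumbar Het replicate 1 lay below the highest brachial library, and the other lumbar libraries lay above it. *Chek1*, a checkpoint kinase that guards S phase, stood at 5.36, 4.02 and 4.20 rescaled TPM in the brachial Het libraries, 5.13, 3.50 and 4.79 in brachial KO, 6.67, 8.69 and 8.60 in lumbar Het and 7.12, 9.82 and 11.4 in lumbar KO. Its difference of 0.93 ± 0.14 (SE) was among the 3 of smallest p. *E2f1*, the transcription factor that switches on S phase genes, was low, with a mean of 2.56 rescaled TPM, and differed by 0.87.

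The cyclins and kinases of G2 and mitosis separated the levels in 9 of 9 genes, with a median of 0.83. *Ccnb1*, the cyclin that drives entry into mitosis, stood at 39.6, 25.7 and 36.5 rescaled TPM in the brachial Het libraries, 41.9, 23.5 and 37.0 in brachial KO, 44.2, 63.8 and 65.5 in lumbar Het and 60.5, 73.3 and 86.0 in lumbar KO, and was 1.93-fold higher in lumbar cord with a log2 difference of 0.95 ± 0.17 (SE). *Ccna2*, the cyclin of S phase and G2, stood at 33.6, 22.0 and 27.5 rescaled TPM in the brachial Het libraries, 35.6, 21.5 and 30.3 in brachial KO, 37.0, 47.2 and 45.8 in lumbar Het and 47.1, 55.1 and 65.8 in lumbar KO and differed by 0.81 ± 0.14 (SE). In both, the 2 lowest of the 12 libraries were the brachial replicates 2 and the highest was lumbar KO replicate 3. Their common kinase *Cdk1* differed by 0.68 and the second B-type cyclin *Ccnb2* by 0.83. *Plk1*, a kinase of mitotic entry and exit, stood at 5.32, 4.47 and 5.04 rescaled TPM in the brachial Het libraries, 6.70, 4.42 and 5.49 in brachial KO, 7.56, 8.19 and 7.89 in lumbar Het and 9.39, 9.34 and 10.1 in lumbar KO. Its replicates lay close together, and its difference of 0.73 ± 0.098 (SE) had the smallest p of the 45 (limma, adjusted p = 8.88e-04). *Nek2*, a kinase that splits the centrosomes, stood at 6.51, 5.60 and 7.69 rescaled TPM in the brachial Het libraries, 7.71, 4.99 and 6.10 in brachial KO, 9.21, 11.6 and 10.9 in lumbar Het and 10.8, 13.5 and 16.1 in lumbar KO and differed by 0.89 ± 0.13 (SE). The Aurora kinase genes *Aurka* and *Aurkb* differed by 0.81 and 0.85, and *Melk*, a kinase gene of dividing progenitors, by 1.03.

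The 4 genes of checkpoint and anaphase promotion had the largest median difference, 0.86. *Cdc20*, which activates the anaphase-promoting complex, stood at 30.1, 21.4 and 25.3 rescaled TPM in the brachial Het libraries, 30.2, 16.6 and 28.7 in brachial KO, 31.4, 43.7 and 43.6 in lumbar Het and 46.6, 55.01 and 57.0 in lumbar KO and differed by 0.87 ± 0.15 (SE), without overlap. *Ube2c*, the ubiquitin-conjugating enzyme of that complex, stood at 21.3, 15.2 and 15.4 rescaled TPM in the brachial Het libraries, 24.0, 12.2 and 19.9 in brachial KO, 25.7, 27.6 and 22.6 in lumbar Het and 32.1, 33.6 and 34.9 in lumbar KO. Lumbar Het replicate 3 lay below brachial KO replicate 1, and the difference was 0.73 ± 0.15 (SE). The checkpoint kinase genes *Bub1* and *Bub1b* differed by 0.89 and 0.85.

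The genes of mitotic chromosomes and the spindle had a median of 0.83, and 4 of 10 separated the levels. *Top2a*, the topoisomerase that untangles sister chromatids, stood at 75.0, 47.7 and 65.3 rescaled TPM in the brachial Het libraries, 77.6, 45.5 and 71.4 in brachial KO, 85.8, 116 and 118 in lumbar Het and 119, 150.3 and 164 in lumbar KO. After *Pcna* it was the most abundant gene of the list, and it differed by 0.98 ± 0.16 (SE). *Kif11*, the kinesin that pushes spindle poles apart, stood at 23.7, 17.4 and 20.8 rescaled TPM in the brachial Het libraries, 23.9, 16.1 and 23.2 in brachial KO, 27.3, 36.6 and 35.1 in lumbar Het and 34.2, 41.1 and 52.5 in lumbar KO and differed by 0.84 ± 0.14 (SE). *Kif20a*, a kinesin of the central spindle, stood at 11.4, 7.75 and 10.6 rescaled TPM in the brachial Het libraries, 12.7, 7.70 and 12.1 in brachial KO, 13.8, 17.5 and 16.3 in lumbar Het and 18.7, 22.4 and 24.1 in lumbar KO and differed by 0.85 ± 0.14 (SE). No brachial library reached a lumbar one in these 3 genes. *Mki67*, which encodes the proliferation marker Ki-67, stood at 19.0, 13.7 and 13.3 rescaled TPM in the brachial Het libraries, 20.4, 16.0 and 28.6 in brachial KO, 22.3, 28.0 and 24.7 in lumbar Het and 30.8, 30.4 and 45.03 in lumbar KO. Brachial KO replicate 3 lay above 3 lumbar libraries, and the difference was 0.72 ± 0.15 (SE). *Cenpf*, a protein of the G2 nucleus and kinetochore, stood at 11.5, 8.18 and 10.0 rescaled TPM in the brachial Het libraries, 12.7, 10.3 and 16.5 in brachial KO, 13.9, 16.9 and 16.3 in lumbar Het and 19.2, 20.4 and 25.3 in lumbar KO, with the same brachial KO library high, and differed by 0.70 ± 0.13 (SE). The remaining 5 ran from 0.78 for the spindle assembly factor *Tpx2* to 0.91 for the microtubule-binding *Nusap1*. In the annotation 12 of the 45 genes (*Ccna2*, *Ccnd1*, *Ccne2*, *Cdk2*, *Kif11*, *Mcm7*, *Orc1*, *Kif20a*, *Aurka*, *Cdc20*, *Nusap1* and *Gins2*) overlap a gene on the opposite strand. The study made its libraries with a stranded kit, but the strand setting of the quantification is not given in the sources used here.

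**Figure D2:**
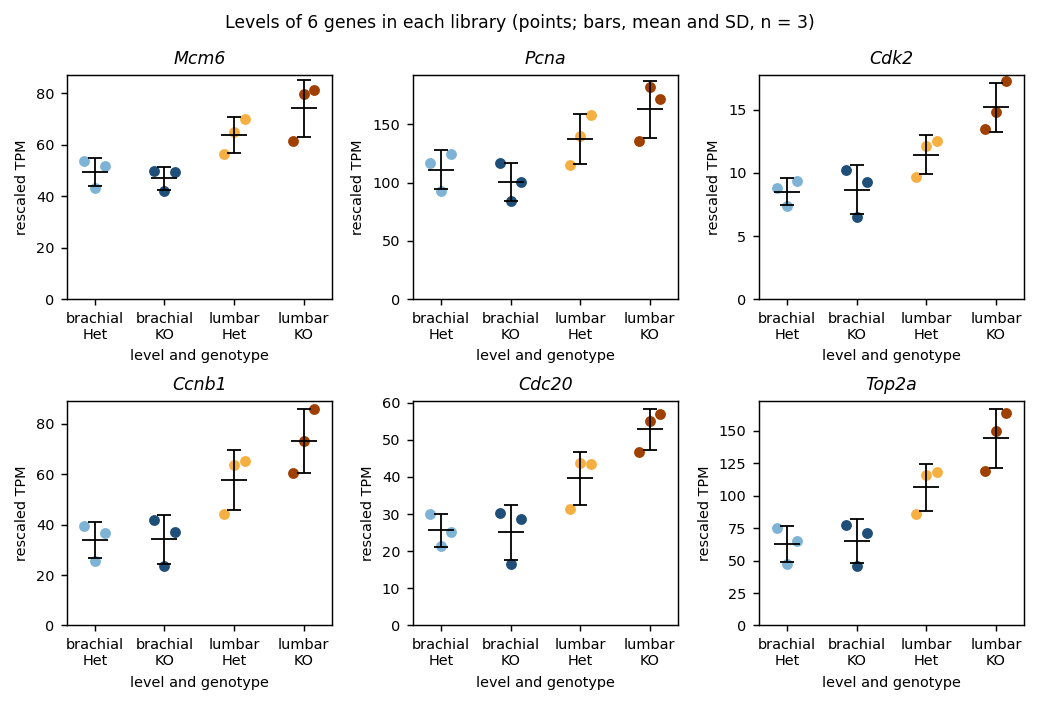
Rescaled TPM of 6 genes, the most abundant of each role with 1 promoter window, in each library (points) with the mean and SD of each group of 3 (bars). In each panel both lumbar groups have higher means than both brachial groups, and the second point of each brachial group is its lowest.

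The level difference was seen in both genotypes, with a positive sign for 45 of 45 genes in each (53.7% of all genes in Het and 50.6% in KO). In Het, the log2 differences had a median of 0.66 and 41 genes had an unadjusted p under 0.05 (background 7.42%), while only *Plk1* passed after adjustment (adjusted p = 0.0344, limma, with 0.479% of all genes called higher). Brachial and lumbar Het libraries did not overlap in 40 genes, against 12.9%. In KO the median was 0.98, 44 genes did not overlap, against 15%, and 42 genes passed, against 5.75% of all genes. The 3 that did not were *Ccnd1*, *Mki67* and *Birc5*, at adjusted p-values of 0.0557, 0.0518 and 0.0623 (limma). Counts in KO rested on single libraries, and fell to 9 without brachial KO replicate 2, to 9 without lumbar KO replicate 2 and to 20 without lumbar KO replicate 3. In Het *Plk1* lost its call on leaving out any 1 of the 6 libraries.

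The genes rose and fell as a block from library to library. Within brachial KO, replicate 2 was the lowest for 45 of 45 genes, and within brachial Het, replicate 2 was the lowest for 42. Lumbar Het replicate 1 was the lowest of its group for 43 and lumbar KO replicate 1 for 42, while lumbar KO replicate 3 was the highest of all lumbar libraries for 39. Over all genes each of these 4 libraries was the lowest of its group for 31.6% to 35.8%. The list summed to 725 and 676 rescaled TPM in the 2 low brachial libraries against 918 to 1023 in the other 4. The median SD of the genes within brachial KO was 0.39 on the log2 scale, against 0.17 for all genes, and within brachial Het 0.26 against 0.13. In lumbar Het it was 0.20 against 0.14, and in lumbar KO 0.23 against 0.16. Brachial KO replicate 2 also had the largest size factor, 1.25, the others lying between 0.893 and 1.08. Without rescaling it stayed the lowest of its group for 39 genes and brachial Het replicate 2 for 35. Leaving out both brachial libraries, an alternative chosen after seeing the data, kept all 45 differences between levels positive, with 38 past the test and a median of 0.61, and *Pcna* and *Ccnd1* at adjusted p-values of 0.0689 and 0.0674 (limma). Of all genes 10.6% were then higher at an unadjusted p under 0.05, against 16.4% with all libraries.

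**Figure D3:**
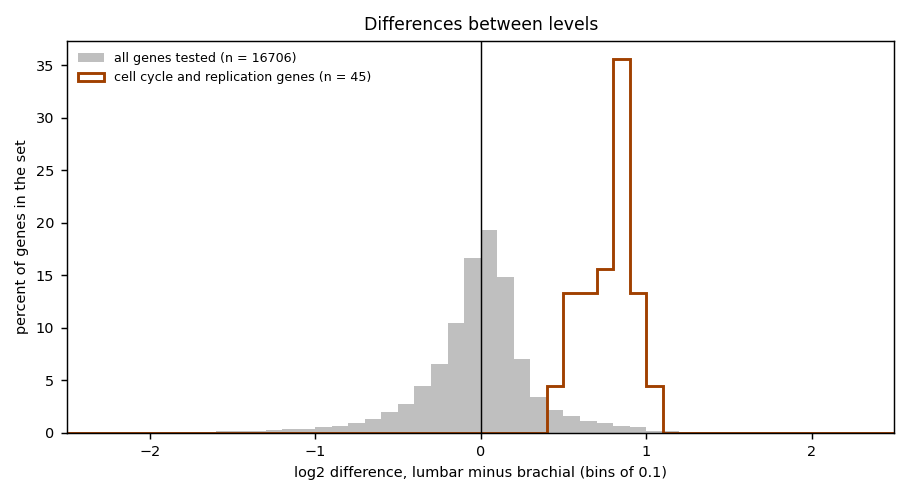
Histogram of log2 differences between levels (lumbar minus brachial, bins of 0.1) for all 16706 genes tested (grey) and the 45 genes (outline), each as a percent of its set. 31 genes lie outside the axis. The 45 genes lie between 0.42 and 1.05, to the right of the bulk of all genes.

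In lumbar cord all 45 genes averaged higher in KO than in Het, but none passed the adjusted test. The sign was positive for 48% of all genes. The log2 differences had a median of 0.34 (all genes, -0.0068). Unadjusted, 21 genes had a p under 0.05, against 2.63% of all genes higher and 2.19% lower, and in 15 genes the genotypes did not overlap, against 4.42%. No gene among the 16498 tested passed after adjustment, so the 21 are no calls. With 3 libraries against 3, an exact permutation test cannot go below 0.1. *Ube2c* had the smallest p. It stood at 25.7, 27.6 and 22.6 in lumbar Het and 32.1, 33.6 and 34.9 in lumbar KO, a log2 difference of 0.41 ± 0.093 (SE) (limma, adjusted p = 0.984), and every KO library lay above every Het one. *Cenpf* stood at 13.9, 16.9 and 16.3 in lumbar Het and 19.2, 20.4 and 25.3 in lumbar KO, a difference of 0.46 ± 0.13 (SE) (limma, adjusted p = 0.999). *Kif20a* stood at 13.8, 17.5 and 16.3 in lumbar Het and 18.7, 22.4 and 24.1 in lumbar KO, a difference of 0.45 ± 0.13 (SE) (limma, adjusted p = 0.999). These genotypes did not overlap either. By role, the unadjusted p was under 0.05 in 5 of 12 licensing genes, 0 of 4 synthesis genes, 3 of 6 genes of G1 to S, 2 of 9 cyclins and kinases, 4 of 4 genes of checkpoint and anaphase promotion and 7 of 10 of chromosomes and spindle.

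The size of the lumbar difference depended on single libraries. Without lumbar Het replicate 1, the lowest, 43 genes kept a positive difference with a median of 0.23 and 6 at an unadjusted p under 0.05. Without lumbar KO replicate 3, the highest, the values were 43, 0.23 and 7. Without lumbar KO replicate 1 the count rose to 37 and without lumbar KO replicate 2 it fell to 13. Of all genes 1.85%, 1.78%, 3.08% and 3.82% were higher at an unadjusted p under 0.05 in these fits, in that order. The pan-neuronal markers averaged lower in lumbar KO for 14 of 15 genes, with 0 called and a median of -0.096, and the neural progenitor markers higher for 12 of 15, with 0 called and a median of 0.15. The motor neuron markers averaged lower for 9 of 10, with 0 called and a median of -0.21. They include *Prph*, which the study reports as reduced in motor pools without *Isl2*. They summed to 378, 288 and 312 rescaled TPM in the lumbar Het libraries and 284, 315 and 226 in lumbar KO. Het replicate 1 was the highest of its group and KO replicate 3 the lowest of its group, the reverse of the cell cycle genes. The erythroid markers averaged higher for 10 of 10, with 0 called and a median of 0.48. Their sums were 2465, 3939 and 3833 rescaled TPM in the lumbar Het libraries and 3209.8, 5100.3 and 5135 in lumbar KO. Replicate 1 was the lowest of each lumbar group, as for the cell cycle genes, whereas in brachial Het replicate 1 had the lowest erythroid sum and the highest sum of the cell cycle genes. Their part in the result was not tested.

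In brachial cord the genotypes did not differ beyond the spread of the libraries. KO averaged above Het in 25 genes and below it in 20, the median log2 difference was 0.0073, and the genotypes overlapped in every gene (9.66% of all genes did not, with KO higher). KO was higher in 48.1% of all genes. None of the 45 passed with or without adjustment, whereas 6.58% of all genes were higher and 7.28% lower at an unadjusted p under 0.05, and 0.00591% (1 gene, lower in KO) passed after adjustment. The 95% confidence intervals reached far to both sides, -0.57 to 0.54 for *Ccnb1* and -0.50 to 0.57 for *Top2a*, and there held both 0 and the lumbar median of 0.34. The 3 genes of smallest p were higher in KO. *Mki67* stood at 19.0, 13.7 and 13.3 in brachial Het and 20.4, 16.0 and 28.6 in brachial KO, a log2 difference of 0.47 ± 0.23 (SE) (limma, adjusted p = 0.371). *Cenpf* stood at 11.5, 8.18 and 10.0 in brachial Het and 12.7, 10.3 and 16.5 in brachial KO, a difference of 0.40 ± 0.20 (SE) (limma, adjusted p = 0.374). *Ccne1* stood at 8.04, 6.40 and 7.27 in brachial Het and 8.76, 6.98 and 8.46 in brachial KO, a difference of 0.15 ± 0.14 (SE) (limma, adjusted p = 0.584). For *Mki67* and *Cenpf* 1 library, KO replicate 3, stood far above the rest. The erythroid markers averaged higher in brachial KO for 10 of 10, with 0 called and a median of 0.49, and summed to 7124 rescaled TPM in that library and to 2501 to 4213 in the other brachial ones. Their part in the result was not tested. The count of positive differences turned with single libraries, from 9 without Het replicate 2 or without KO replicate 1 to 42 without KO replicate 2, and was 44 with TPM as deposited, where the median of all genes also shifted to 0.16. Over the libraries left out, 0 to 3 of the 45 were higher at an unadjusted p under 0.05, against 1.77% to 12.4% of all genes.

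The genotype effect (KO minus Het) was higher in lumbar than in brachial cord for 44 of 45 genes, against 49.6% of all genes, with a median difference of 0.32 on the log2 scale, but none passed the test of that difference after adjustment and 1 before it, against 2.27% of all genes higher and 2.14% lower. The gene was *Ccne2*, where lumbar KO averaged 10.8 against 7.78 rescaled TPM and brachial KO 5.41 against 5.90, an interaction of 0.60 ± 0.23 (SE) (limma, adjusted p = 0.812). *Mcm5* followed with 0.58 ± 0.26 (SE) and *Cdt1* with 0.56 ± 0.31 (SE), at adjusted p-values of 0.812 and 0.812 (limma). *Gins2*, a subunit of the active helicase, was the exception to the sign at -0.049. Without brachial KO replicate 2 the median was 0.11 with 36 genes positive. Over the libraries left out in turn, 0 to 5 genes were higher at an unadjusted p under 0.05, against 1.28% to 6.43% of all genes. The 42 genes called between levels in KO and the 1 in Het are therefore not shown to differ.

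**Figure D4:**
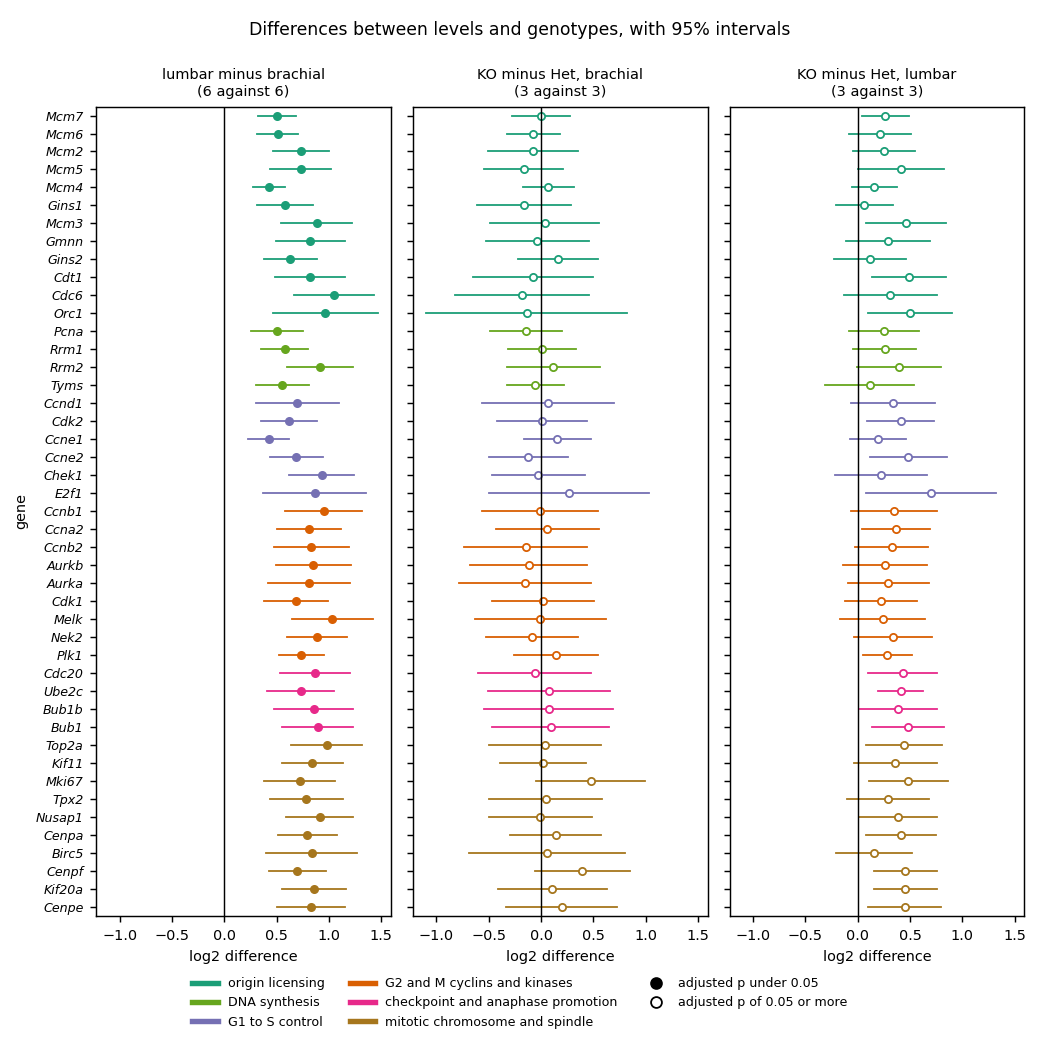
Log2 difference of each gene (point) with its 95% confidence interval (line) between levels, between genotypes in brachial cord and between genotypes in lumbar cord, filled where the adjusted p is under 0.05. All points of the left panel are filled and to the right of 0, those of the middle panel lie on both sides, and those of the right panel are open and to the right of 0.

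Most other genes of the same pathways were also higher in lumbar cord, with list medians below the 0.81 of the 45. Of 47 further replication genes, 47 were higher in lumbar cord and 38 passed the test, with a median log2 difference of 0.48, and of 55 further mitosis genes 55 were higher and 54 passed, with a median of 0.74 (all genes, 52.2% above 0 and 8.72% called higher). The smallest p-values among replication genes were those of *Clspn*, an adaptor of Chk1, at 0.94, *Chaf1a*, a histone chaperone at the fork, at 0.58, *Pola2*, a subunit of the polymerase that primes synthesis, at 0.48 and *Mcm10*, which helps to activate the helicase, at 0.80. Among mitosis genes they were those of the cyclin *Ccnf* at 0.64, the spindle protein *Dlgap5* at 0.95, the kinesin *Kif2c* at 0.87 and the condensin subunit *Ncaph* at 0.84. These 8 passed the test. Of 14 further genes of G1 to S control 12 were higher and 9 passed, among them *Cdk4*, the kinase partner of D-type cyclins, which rose from a mean of 360.3 to 506 rescaled TPM, as well as *Skp2*, *Rbl1* and *Myb*. *Rb1*, the brake that these kinases release, averaged 34.8 and 35.1. In lumbar cord KO averaged above Het in 40 of 47, 55 of 55 and 14 of 14 genes of the 3 lists, with 0 called after adjustment and 8, 26 and 4 at an unadjusted p under 0.05 (all genes, 48% above 0 and 2.63% higher at an unadjusted p under 0.05). In brachial cord KO averaged above Het in 15 of 47, 36 of 55 and 12 of 14, against 48.1% of all genes, with 0 called after adjustment.

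Genes of cell cycle exit were mixed. Of 12, 10 were tested, and 6 of these were higher in lumbar cord, 3 of them called, and 4 lower, 1 of them called, against 8.72% of all genes called higher and 9.48% lower, with a median of 0.14 and summed levels of 540.4 to 780 rescaled TPM in brachial and 745 to 888 in lumbar libraries. *Cdkn1c*, the inhibitor p57 that newborn neurons make, averaged 317 rescaled TPM in brachial and 435 in lumbar cord, a log2 difference of 0.48. *Btg2*, a gene of neuron-producing divisions, rose by 0.39 and the inhibitor *Cdkn2c* by 0.59. *Cdkn1a*, the inhibitor p21, was low throughout and lower in lumbar cord, at -0.63. *Cdkn2a* was listed at 0 in 12 libraries.

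Markers of the cells that carry the cycle did not all move with it. Of 15 neural progenitor markers 6 were called higher and 3 lower in lumbar cord, against 8.72% and 9.48% of all genes, with a median of 0.18 and summed levels of 2605 to 3494 rescaled TPM in brachial and 2649 to 3113 in lumbar libraries. *Vim* and *Nes*, intermediate filaments of progenitors, differed by 0.34 and 0.42, and *Fabp7*, a fatty acid-binding protein of radial glia and the most abundant of the list, by -0.40. Of 10 tested markers of the transition to neurons 6 were called higher and 0 lower, against the same shares, with a median of 0.50. *Hes6* and *Dll1* differed by 0.52 and 0.49, and *Neurog2* by 0.26 (adjusted p = 0.0704, limma). The list summed to 175 to 242 rescaled TPM in brachial and 259 to 337 in lumbar libraries, *Eomes* being at 0 in 8 libraries.

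Of 15 pan-neuronal markers 4 were called lower and 0 higher in lumbar cord, with a median of -0.10, against 9.48% of all genes called lower. *Tubb3*, *Nefl* and *Stmn3*, the most abundant, differed by 0.0082, -0.17 and -0.052, none of which passed. The defining motor neuron genes *Mnx1* and *Isl1* averaged 43.6 and 54.9 rescaled TPM in brachial and 53.1 and 58.8 in lumbar cord. Of the 10 motor neuron markers 6 were higher in lumbar cord, none of them called, and 4 lower, 2 of them called, with a median of 0.12. They summed to 494 to 554 rescaled TPM in brachial and 226 to 378 in lumbar libraries, without overlap. *Prph*, an intermediate filament, was the most abundant of the list and so had the most weight in the sum, and it differed by -2.62.

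Markers of other cell types and tissues that a dissection can hold were also measured, and 9.48% of all genes were called lower between levels. Of 8 endothelial markers 4 were called lower in lumbar cord (summed 77.7 to 105 in brachial and 66.9 to 81.4 rescaled TPM in lumbar libraries), of 8 of microglia and macrophages 5 (25.9 to 41.5 and 12.4 to 25.3), and of 5 tested of 10 mesenchyme markers 4 (67.1 to 92.6 and 45.9 to 67.6, with *Twist2* at 0 in 8 libraries and *Lum* in 7). Of 10 erythroid markers none was called (2501 to 7124 and 2465 to 5135), and of 6 floor plate markers none, although 5 were higher in lumbar cord with a median of 0.15 (193 to 247 and 173 to 257). Of 5 tested Schwann cell and neural crest markers 1 was called lower and none higher. Of 3 tested sensory ganglion markers 2 were higher in lumbar cord and none was called (12.498 to 18.9 and 11.8 to 16.6), with *Scn10a* at 0 in 12 libraries. Skeletal muscle markers summed to 0.892 to 1.77 in brachial and 1.31 to 2.36 in lumbar libraries, the only one tested was not called, and *Myod1* was at 0 in 12. Their part in the result was not tested.

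**Figure D5:**
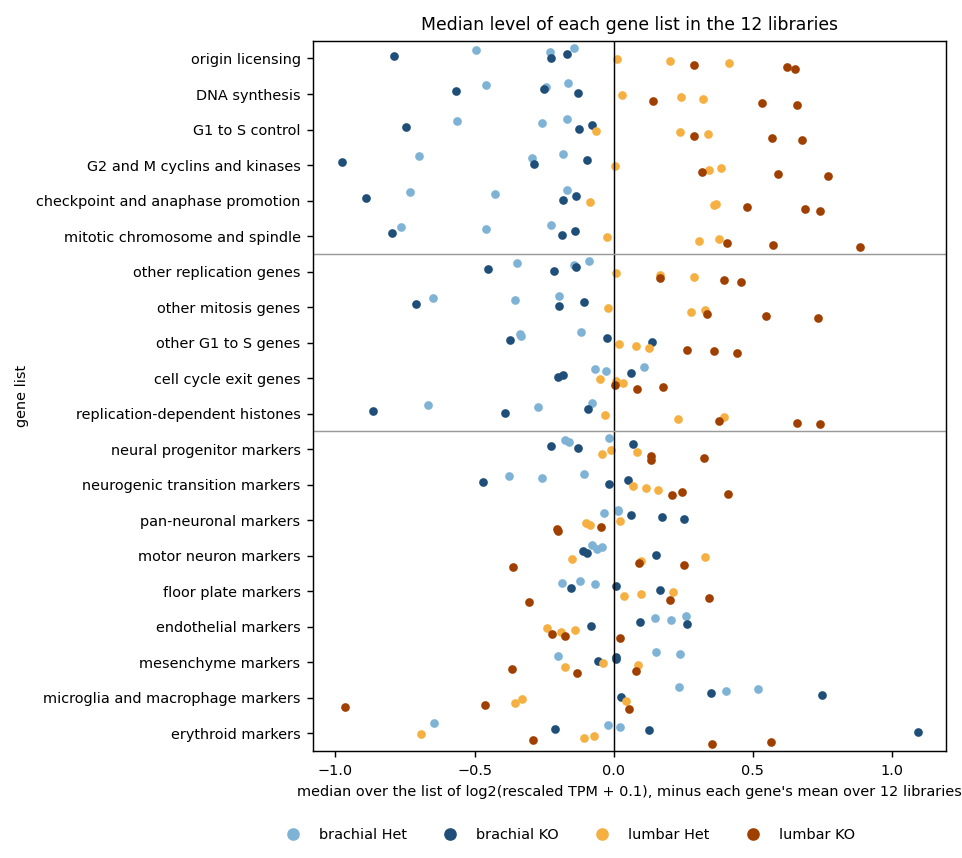
Median over each gene list of log2(rescaled TPM + 0.1) minus each gene's mean over the 12 libraries, 1 point per library and coloured by group. The 6 roles on top, the other replication and mitosis genes and the histones spread widely with lumbar points to the right, whereas the points of progenitor, pan-neuronal and motor neuron markers lie nearer to 0.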

How the data were processed

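Bulk RNA-seq tables of 12 libraries were used, grouped by the tissue and genotype of their labels. Per the submitters' processing notes and the study's methods, the authors used FastQC 0.11.7, Trimmomatic 0.38, HISAT2 2.1.0, Bowtie2 2.3.4.1 and StringTie 2.1.3b on mm10. The deposited TPM values are scaled by the authors to a fixed total per library. The deposited FPKM values come from the same StringTie run, and the deposited coverage values are the mean read coverage of a gene. Since read counts are not part of the tables, the authors' DESeq2 analysis was not repeated and counting error is unknown. Coverage divided by FPKM gave the depth.

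Symbols came from RefSeq GRCm38.p6, which held 45679 of 45777 identifiers, and 6 identifiers on more than 1 line were summed. Each library's TPM was divided by its size factor (median of ratios). Genes averaging at least 0.5 entered limma 3.58.1 (R 4.3.3, eBayes with trend) as log2 values after addition of 0.1, with Benjamini-Hochberg adjustment over all genes and a threshold of 0.05. Levels and interaction used all 12 libraries, genotypes the 6 of each level, rescaled within them. The fit was also run on simulated data in which genes varied independently. Those data do not cover genes that rise and fall together. Python 3.11.15, pandas 2.3.3 and matplotlib 3.10.9 were used. The genes and lists were chosen with earlier results of these data known. Values are given for the 2 most abundant genes of each role and the 3 of smallest p in each comparison, up to 4 other pathway genes of smallest p between levels, and up to 3 markers of highest level per list, all others by counts and ranges. A few further genes were named after their values were seen. Alternatives covered the pseudocount, filter, scaling, unit, gene types, variance trend, replicate block, each library left out and, added after seeing the data, embryo sex and 2 brachial libraries.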

Additional observations from a re-analysis of the deposited data

How the results depend on the processing

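Of 1012 values recomputed under 26 alternatives for 45 results, 961 stayed on the same side of the threshold or within the limits set for counts and medians, 6 lost significance, 45 moved, and no called value changed sign. Uncalled values did change side between brachial genotypes, where the median ranged from -0.12 to 0.23 and the count of positive differences from 9 to 44 of 45. Between levels 38 to 45 genes passed under each alternative and the median lay between 0.61 and 0.87 on the log2 scale, although *Ccnd1* lost significance under 5 alternatives and *Pcna* under 1. With TPM as deposited the median of all genes shifted to -0.13 and the median of the 45 was 0.67. In Het the count of 1 became 4 with protein-coding genes only, and 0 with no filter, with embryo sex as a term and without the replicate 2 libraries of both brachial groups. It was 0 to 0 over the libraries left out in turn. In KO the count of 42 ranged from 9 to 43 over the libraries left out, and was 19 without the replicate 2 libraries of both brachial groups. In that last fit 9.88% of all genes were higher at an unadjusted p under 0.05, against 15.3% with all libraries. Between genotypes and for the interaction the count of genes passing after adjustment was 0 under every alternative.

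The replicate block used the labels' numbers, which are not said to pair the libraries. Only 3 of 6 same-numbered libraries matched in sex across levels, so the numbers cannot pair all of them. Correlations of the deviations of same-numbered libraries from their group means, across genes, were 0.079, 0.23 and 0.0092 between brachial genotypes, 0.14, -0.21 and -0.093 between lumbar genotypes, -0.022, 0.20 and 0.34 between levels in Het and 0.029, -0.21 and 0.071 between levels in KO. In these 4 sets, 4, 2, 4 and 0 of 6 libraries correlated best with their own number. With the replicate block 45 genes passed between levels, 0 in Het and 34 in KO. Of all genes 15.3%, 6.82% and 14% were higher there at an unadjusted p under 0.05. Between lumbar genotypes 36 genes had an unadjusted p under 0.05, against 3.4% of all genes, and between brachial genotypes 1, against 5.76%, with 0 after adjustment in both. The 21 lumbar genes at an unadjusted p under 0.05 became 11 when all 12 libraries shared 1 estimate of spread, against 1.81% of all genes, and 6 to 37 over the libraries left out in turn, against 1.78% to 3.82%.

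The tables do not give counting error, and 3 libraries per group leave wide intervals between genotypes. The cause of these changes was not tested.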

Other observations

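The replication-dependent histone genes, which are transcribed in S phase to package new DNA and lack poly(A) tails, were retained in these libraries of total RNA. Their summed level was 13015 to 21297 rescaled TPM over the 62 genes in the brachial libraries and 21767 to 36011 in the lumbar ones. Of 61 tested, 61 were higher in lumbar cord (52.2% of all genes) and 56 passed the test (limma, 8.72% of all genes), with a median log2 difference of 0.77. *H4c8*, *H4c3* and *H4c4*, the most abundant, averaged 1171, 962 and 824 rescaled TPM in brachial and 1753, 1335 and 1219.8 in lumbar cord. Copies of histone genes are nearly identical in coding sequence, so how reads were shared among them is uncertain.

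Between lumbar genotypes 59 of 61 histone genes averaged higher in KO, 42 at an unadjusted p under 0.05 (2.63% of all genes) and 0 after adjustment, with a median log2 difference of 0.38. In brachial cord 4 of 61 averaged higher in KO (48.1% of all genes), 0 passed with or without adjustment and the median was -0.092. The sums were 21297, 14549 and 18604 rescaled TPM in the brachial Het libraries and 20530, 13015 and 17019 in brachial KO. As for the cell cycle genes, the lowest sums of the brachial libraries were those of the replicate 2 libraries.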
